A study of Fukomys damarensis with 16 samples.

Results

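The liver-enriched genes of the Damaraland mole-rat, Fukomys damarensis, were examined in 16 poly(A) RNA libraries of liver, kidney, brain, ovary and testis. A gene was a member if it reached 5 RPKM (reads scaled to 1 kilobase of a gene and to 1000000 reads of the library) in each of the 4 livers and its mean over the livers was at least 8 times its mean in each other tissue. Genes in which the breeding female alone was high in liver, 2-fold or more above all 3 other livers, and which were also 2-fold or more above the non-breeding ovary in the breeding ovary, were left out by the same rule. It kept 295 of 21082 genes. The members were thus chosen by their RPKM in all 16 libraries, and every value that sets liver against another tissue is a description, with no test.

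The Damaraland mole-rat is a subterranean rodent that lives in colonies, in which few animals breed and the others help. For liver, kidney and brain there was 1 library for each combination of breeding status and sex, that is breeding males, breeding females, non-breeding males and non-breeding females. The ovary libraries were 1 of each status, as were those of testis. The non-breeding males were 5 years old and the non-breeding females 3 years old by their labels, and no age is given for breeders, so status cannot be told apart from age, nor sex from age among non-breeders. The non-breeding male brain is labelled only as brain, while the other brains are frontal brain. The labels do not say which libraries share an animal, or whether a library pools animals, and p-values measure the spread between these libraries, which may be technical.

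The liver makes most of the proteins of blood plasma, bile acids and urea, and it stores and releases sugar and fat. Its main cell, the hepatocyte, devotes a large part of its messenger RNA to a small number of secreted proteins. In rats and mice, many liver genes for steroid and drug metabolism are known to differ between the sexes. The deposited table names genes by identifiers alone, and 0 of 21082 matched any name or accession of the 33132 genes that RefSeq lists for assembly DMR_v1.0_HiC. The members are therefore described by level, tissue and library, their functions are not given, no sequences are shown, and the tissue labels could not be checked against known markers.

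Whole reads were recovered from the RPKM values. The 4 livers held 23856577 to 27593390 reads on genes and the other 12 libraries 15392804 to 26711535. The deposited scaling treats liver differently. With gene lengths taken in multiples of 3 bases, reads on genes exceeded its library size in liver (1.55 to 1.97 times). They did not in the other tissues (0.665 to 0.945 times). Another length unit would move all these ratios together and keep the gap between liver and the rest. Liver levels, set against other tissues, are accordingly higher than they would be per read on genes. On that other scale the same rule chose 188 genes, all 188 of them among the 295. In bulk tissue, fewer cells of a type and less RNA per cell cannot be told apart.

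The 295 genes made up close to 1 in every 2 liver reads. Their share of reads on genes was 49.3% in the breeding male, 42.8% in the breeding female, 48.9% in the non-breeding male and 46.8% in the non-breeding female liver, a mean of 47.0% ± 2.97 (SD, n = 4). It was 1.13% ± 0.186 in kidney (SD, n = 4), 0.524% ± 0.163 in brain (SD, n = 4), 0.875% and 0.791% in the breeding and non-breeding ovary, and 0.539% and 0.533% in the breeding and non-breeding testis. The members covered 57 of the 100 genes with the highest mean liver RPKM and all 10 of the highest 10. Most of that share lay in few genes: the most abundant member alone held 32.0% of the members' liver reads, the 10 most abundant 52.4% and the 50 most abundant 84.2%.

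**Figure D1:**
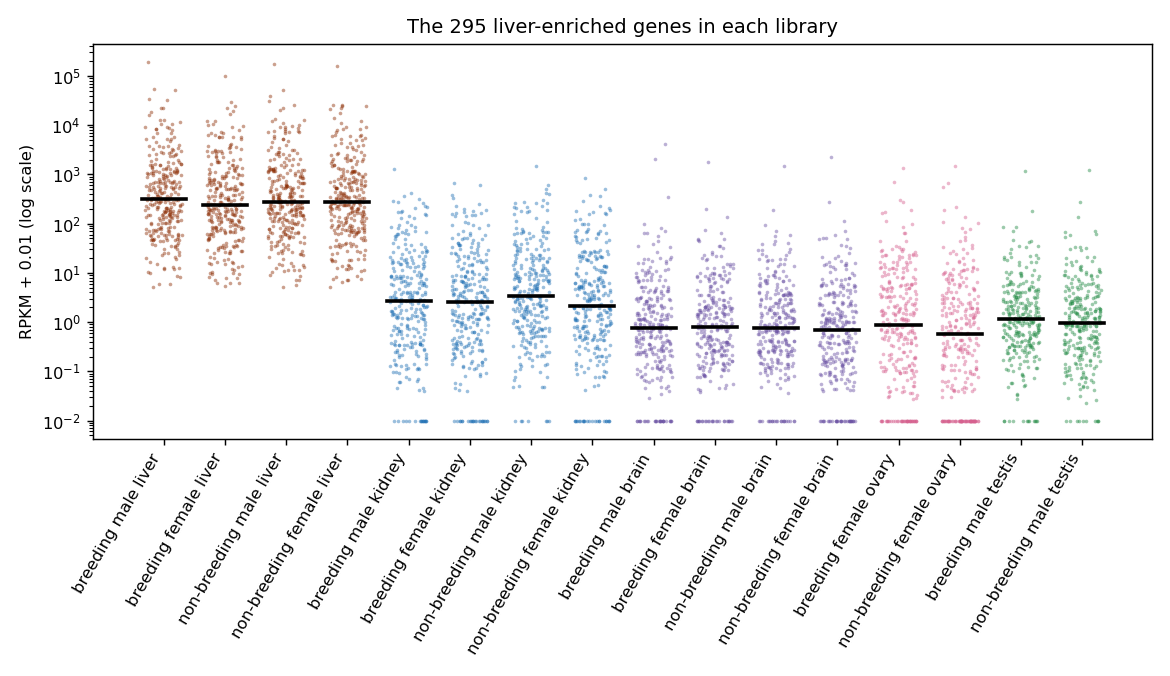
RPKM plus 0.01, on a log axis, of each of the 295 liver-enriched genes (points) in each of the 16 libraries, coloured by tissue, with the median as a black bar. The medians are 236.8 to 315.2 RPKM in the 4 livers and at most 3.46 RPKM in the other libraries, with points at the bottom for genes listed at 0.

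DMR_10289 was the most abundant member. It stood at 193005 RPKM in the breeding male, 100241 in the breeding female, 177561 in the non-breeding male and 162406 in the non-breeding female liver, from 2640990 to 4630809 reads. The breeding female liver was the lowest. DMR_05574, the next in abundance, stood at 53720 RPKM in the breeding male and 50784 in the non-breeding male liver, and at 29684 in the breeding female and 25652 in the non-breeding female liver. Both males were above both females. Below these, mean liver levels spread widely. A mean of 10000 RPKM or more was reached by 11 members, while 64 lay between 1000 and 10000, 144 between 100 and 1000, 72 between 10 and 100, and 4 below 10, with a median of 289.2 RPKM and a lowest mean of 8.01 RPKM. The least-read value of any member in a liver rested on 23 reads and the median value on 5274.

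**Figure D2:**
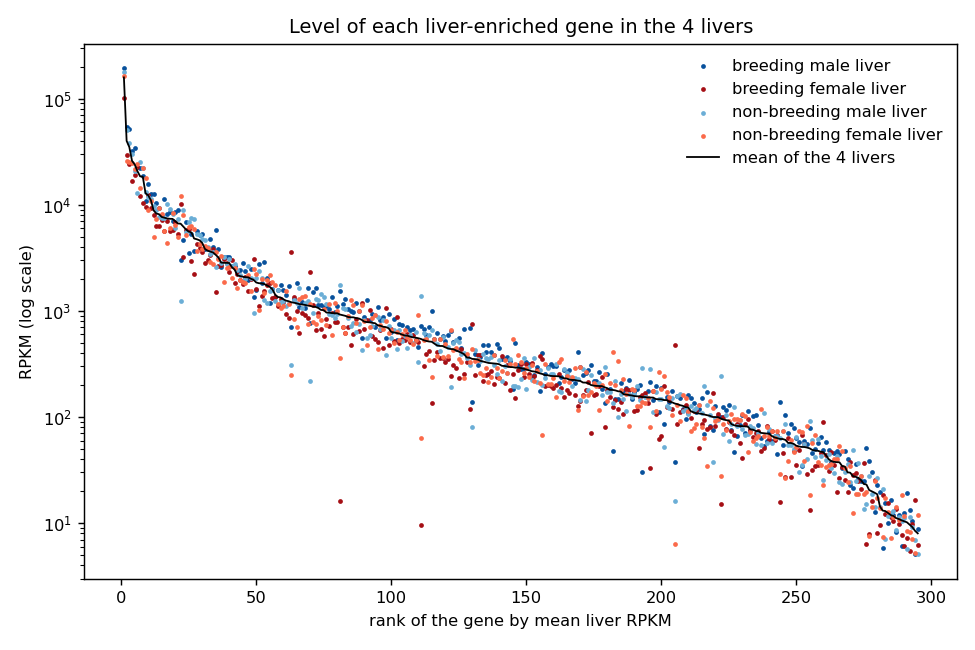
RPKM (log axis) of each liver-enriched gene in the 4 livers (points, coloured by animal class) against its rank by mean liver RPKM (black line). Levels run from a mean of 158303 RPKM to 8.01 RPKM, and a few genes lie far below or above the line in 1 or 2 livers.

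The margin over other tissues also varied. The mean liver level was 8 to under 16 times the highest other tissue mean in 88 members, 16 to under 64 times in 90, 64 to under 512 times in 74 and 512 times or more in 43, with a median of 38.6 times. At the edge of the rule, DMR_00834 just passed with 8.03 times (liver mean over kidney mean) and DMR_03425 just missed with 7.97 times. Near that edge, 25 members lay at 8 to under 9 times and 32 genes at 7 to under 8 times. No member was listed at 0 in all 12 other libraries. In each of those, 32 were under 1 RPKM, with mean liver levels of 9.17 to 783.8 RPKM, and 57 were at 1 RPKM or more in all of them, with a median margin of 12.9 times. The largest margin, on RPKM + 1, belonged to DMR_10615, with a mean of 6630 RPKM in liver (SD 5322, n = 4) and 3.37 in kidney (SD 2.21, n = 4). DMR_10289 came next, with a mean of 158303 RPKM in liver (SD 40674, n = 4) and 137.1 in kidney (SD 194, n = 4).

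Kidney was the tissue with the next highest mean for 144 members, testis for 58, ovary for 56 and brain for 37. A mean of 1 RPKM or more was reached by 199 members in kidney, 153 in testis, 140 in ovary and 135 in brain, and a mean of 100 RPKM or more by 23, 3, 8 and 4 members in the same order of tissues. DMR_13102 had the highest level in kidney. It stood at 51863, 24176, 38323 and 25250 RPKM in the livers and at 1300, 678.3, 1515 and 844.3 RPKM in the kidneys of the breeding male, breeding female, non-breeding male and non-breeding female. Males were above females in both tissues. DMR_11087 had the highest level of any member in brain, ovary and testis alike. Its mean was 25936 RPKM in liver (SD 7023, n = 4), its 4 brain values lay between 1484 and 2243 RPKM, it had 1359 RPKM in the breeding ovary and 1469 RPKM in the non-breeding ovary, and its testis values were 1150 RPKM (breeding) and 1223 RPKM (non-breeding). In kidney, at 283.9 to 620.3 RPKM, it was lower than in every library of those 3 tissues.

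A single library set 1 member apart in brain. DMR_09841, singled out after its values were seen, stood at 4080 RPKM (40666 reads) in the breeding male frontal brain, against 9.52 in the breeding female frontal brain, 40.8 in the non-breeding male brain and 5.64 in the non-breeding female frontal brain. In the livers it stood at 12104 to 25425 RPKM. The most abundant member, DMR_10289, had its lowest brain value in that library, 26.8 RPKM against 31.7 to 58.8 RPKM in the other 3 brains. DMR_09841 was the member that alone reached 4-fold over each other brain in that library, where 6 of 14876 genes (0.0403%) did. Without the 10 most abundant members, of which it is 1, the members' share of the remaining reads was 0.272% in the breeding male frontal brain and 0.243% to 0.265% in the other 3.

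In ovary the most abundant members were hardly read. DMR_10289 had 5 reads in the breeding ovary and 0 reads in the non-breeding ovary, which allows up to 3 reads, and DMR_05574 had 3 and 0 reads. In the 4 brains DMR_10289 stood at 26.8 to 58.8 RPKM, and in the breeding and non-breeding testis at 23.1 and 14.9 RPKM. Thus the tissue with the least reads of the most abundant member was not the one with the smallest share of member reads.

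Levels varied more between the 4 livers in the members than in liver genes at large. The SD of log2(RPKM + 1) over the livers had a median of 0.37 in the members and 0.26 in the 8999 genes at 5 RPKM or more in each liver, members included. The highest liver was 4 or more times the lowest in 23 members (7.80%) and in 144 of those 8999 genes (1.60%). At the other end, the highest liver was under 2 times the lowest in 186 members (63.1%) and in 83.4% of the 8999 genes. By deposited RPKM the breeding male liver was the highest for 143 members (48.5%, against 33.5% of the 8999 genes), the breeding female for 30 (10.2%, against 15.9%), the non-breeding male for 53 (18.0%, against 20.4%) and the non-breeding female for 69 (23.4%, against 30.2%). These shares move with the scaling. Per read on genes the breeding male was the highest for 91 members (30.8%, against 14.9%), the breeding female for 76 (25.8%, against 41.3%), the non-breeding male for 62 (21.0%, against 17.4%) and the non-breeding female for 66 (22.4%, against 26.4%).

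Sex was compared with limma on log2(RPKM + 1) in the 4 livers, with breeding status in the model. Members tended to be higher in males, although none passed the adjusted threshold. The median difference, male minus female, was 0.27 on the log2 scale over the 295 members and 0.02 over the 12908 genes tested. Both male livers were above both female livers in 112 members (38.0%), against 22.4% of the 8999 genes at 5 RPKM or more in each liver. Both were below both female livers in 34 members (11.5%), against 12.3% of those genes. Among the 50 most abundant members, 24 were higher in both males and 2 lower by deposited RPKM. For these 50, neither the count per read on genes nor a share over genes of like level was taken. Per read on genes the median gene moved to -0.13 and the median member to 0.09. Then 82 members were higher in both males (27.8%, against 9.57% of the 8999 genes) and 53 lower (18.0%, against 27.5%).

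A small group stood 2-fold or more apart. In males 12 members were 2-fold or more higher in both the breeding and the non-breeding pair (background 0.311% of the 8999 genes), with mean liver levels of 20.5 to 1821 RPKM and log2 differences of 1.05 to 5.25. Another 8 were 2-fold or more lower in both pairs (background 0.311%), with mean liver levels of 100.1 to 6630 RPKM and log2 differences of -1.24 to -2.53. The pairs went 2-fold in opposite directions for 5 members, a count given without a background. DMR_08805 had the largest difference toward males, at 714.1 and 1387 RPKM in the breeding and non-breeding male livers against 9.63 and 63.7 RPKM in the breeding and non-breeding female livers. The groups did not overlap (log2 difference 5.25, SE 0.45, limma adjusted p = 0.212). DMR_10615, the member with the largest margin over other tissues, had the largest difference toward females, at 2999 and 1235 RPKM in the breeding and non-breeding male livers against 10160 and 12127 RPKM in the breeding and non-breeding female livers. Again the groups did not overlap (log2 difference -2.53, SE 0.50, limma adjusted p = 0.674).

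By limma, 0 of the 12908 genes tested passed an adjusted p of 0.05 for sex in liver (0% in either direction). An unadjusted p under 0.05 was reached by 41 members toward males (background 4.35%) and 14 toward females (background 2.8%), and voom on the recovered reads called 0 members. When the kidney and brain libraries shared the estimate of the spread, 4 members and 34 of all genes were called, DMR_08805 among them (limma adjusted p = 0.0269, range over all alternatives 0.000186 to 0.9999). Leaving out the non-breeding female liver gave 14 called members among 323 called genes, leaving out the breeding female liver gave 2 among 27, and leaving out either male liver gave 0 members. In such fits the lone library of an arm is assumed to vary like the others.

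**Figure D3:**
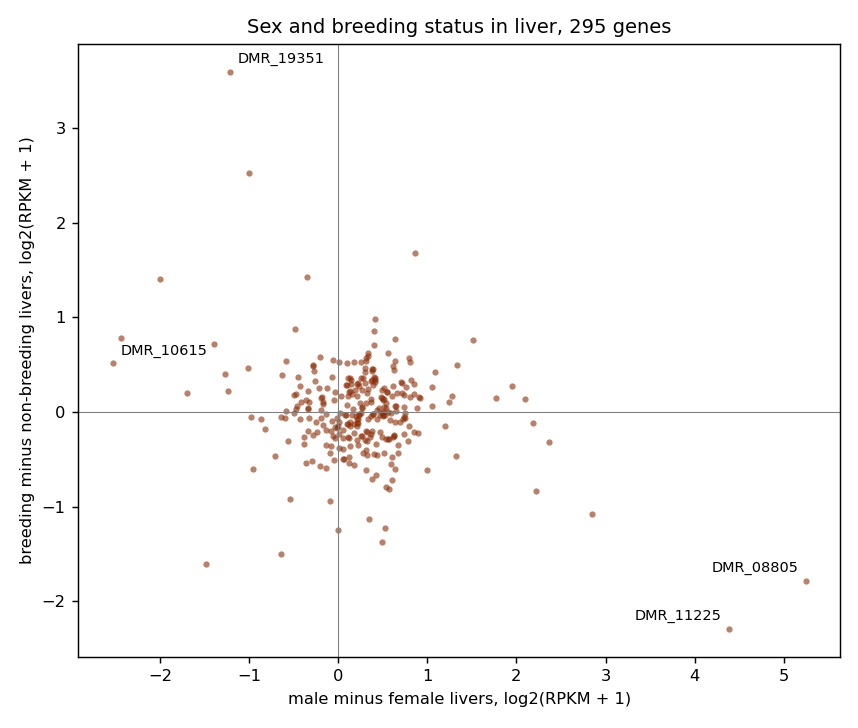
Difference in log2(RPKM + 1) between male and female livers (horizontal axis) and between breeding and non-breeding livers (vertical axis) for the 295 liver-enriched genes, from the limma fit of 4 livers. DMR_08805 lies at 5.25 on the horizontal and DMR_19351 at 3.59 on the vertical axis, while most genes lie near 0 on the vertical and to the right of 0 on the horizontal axis.

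Breeding status was compared in the same fit of 4 livers. The members as a group sat where all genes did, with a median difference, breeding minus non-breeding, of 0.00 on the log2 scale over the 295 members and 0.01 over the 12908 genes. Both breeding livers were above both non-breeding livers in 46 members (15.6%, background 19.3%) and below them in 32 (10.8%, background 21.6%). In both the male and the female pair, 2 members (0.678%, background 0.211%) were 2-fold or more higher and 3 (1.02%, background 0.167%) lower. These shares lay above the backgrounds but rest on few genes. Another 8 went 2-fold in opposite directions, a count given without a background. The clause on the breeding female had taken 3 further genes out, all high in the breeding female liver.

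DMR_19351 had the largest difference toward breeders. It stood at 37.6 and 476 RPKM in the breeding male and female livers, against 16.1 and 6.4 RPKM in the non-breeding male and female livers, from 145, 2017, 59 and 26 reads. The breeding female carries most of the difference (log2 difference 3.59, SE 1.18, limma adjusted p = 0.607), and the ovary values of the same gene were 4.90 RPKM (breeding) and 4.87 RPKM (non-breeding). DMR_11225 had the largest difference toward non-breeders, at 1551 and 16.2 RPKM in the breeding male and female livers against 1766 and 361.6 RPKM in the non-breeding male and female. The groups overlap (log2 difference -2.29, SE 1.03, limma adjusted p = 0.612). The female pair carries that difference: without the breeding female liver it turned to 0.96 (limma adjusted p = 0.904, range over all alternatives 0.109 to 0.999).

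For status in liver, limma called 0 of 12908 genes (0% in either direction). An unadjusted p under 0.05 was reached by 13 members in each direction (background 4.49% higher and 3.67% lower in breeders), and voom called 0 members. Without the breeding male liver, the breeding female is the only breeder. DMR_19351 was called in that fit, which gives no measure of the spread between breeders. Its membership rests on the same breeding female liver, so the call is no support for a status difference.

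In the kidneys, 199 members reached 1 RPKM in at least 2 libraries and were tested among 13618 genes, in a fit of 4 kidneys with status and sex. A member could pass that filter through the kidneys where it is high, so counts over the 199 are descriptions. One member was called: DMR_21560 rose in males (background 0.117% of genes tested called higher, 0.00734% lower). Its level was 24.7 and 56.0 RPKM in the breeding and non-breeding male kidneys, from 2315 and 4793 reads, against 0.65 and 4.35 RPKM (58 and 321 reads) in the breeding and non-breeding female kidneys. Both males were above both females (log2 difference 3.69, SE 0.26, limma adjusted p = 0.00502). In liver the same gene was at 285.3 and 358.3 RPKM in the breeding and non-breeding males and at 236.8 and 260.3 RPKM in the breeding and non-breeding females (log2 difference 0.36, SE 0.22, limma adjusted p = 0.740). The call was lost without status in the model and without any 1 of the 4 kidneys (limma adjusted p from 0.0728 to 0.783, range over all alternatives 6.7e-05 to 0.783).

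More members stood higher than lower in male kidneys. Of the 199, 57 were higher in both males than in both females (28.6%, background 21.9%) and 24 lower (12.1%, background 22.6%). Per read on genes 70 were higher and 16 lower (backgrounds 27.4% and 17.5%). An unadjusted p under 0.05 was reached by 43 members toward males (background 7.91%) and 18 toward females (background 5.69%). In both pairs, 11 members were 2-fold or more higher in males (background 0.962%) and 3 lower (background 0.397%). Over all 295 members, without the kidney filter, 78 were higher in both males (26.4%, against 23.9% of the 8999 genes). Lower in both were 28 (9.49%, against 22.1%). Per read on genes these were 92 (31.2%, against 30.1%) and 19 (6.44%, against 16.7%). On that base the share higher lay near the background, and the share lower lay below it. DMR_16771 had the largest difference toward females, at 48.5 and 9.66 RPKM in the breeding and non-breeding male kidneys against 172.7 and 228 RPKM in the breeding and non-breeding female kidneys. It did not pass (log2 difference -3.12, SE 0.54, limma adjusted p = 0.117, range over all alternatives 0.00647 to 0.847). Whether it passes thus depends on the setting. Of the members 2-fold apart in both liver pairs, 6 of the 12 higher in males were measured in kidney and 1 of those was 2-fold higher in both kidney pairs, and of the 5 measured among the 8 lower in males 0 were 2-fold lower there. Called members, counted in both directions together, numbered 11 among 84 called genes per read on genes and 11 among 109 with voom. They numbered 5 among 25 with a pseudocount of 5 and 3 among 16 with a filter of 1 RPKM in every kidney, which leaves DMR_21560 out.

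The non-breeding male kidney held the most member RNA of the kidneys. Members took 1.11% of reads on genes in the breeding male, 1.0% in the breeding female, 1.40% in the non-breeding male and 1.0% in the non-breeding female kidney. It was the highest kidney for 93 of the 199 members tested (46.7%), against 22.4% of the 13618 genes. In that kidney 13 of 14180 genes (0.0917%) were 4-fold or more above each other kidney, and 7 of these 13 were members, with mean liver levels of 543.6 to 158303 RPKM. These 7 reached 0.244% to 0.868% of their mean liver level in that kidney. Across the 295 members, the correlation of log2 levels with the mean liver level was 0.75 (Pearson) in this kidney and 0.53 to 0.61 in the other 3. These correlations are over genes of 1 library, which share its depth, and RPKM + 0.01 was used. Whether liver RNA in that library plays a part in the kidney differences was not tested.

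**Figure D4:**
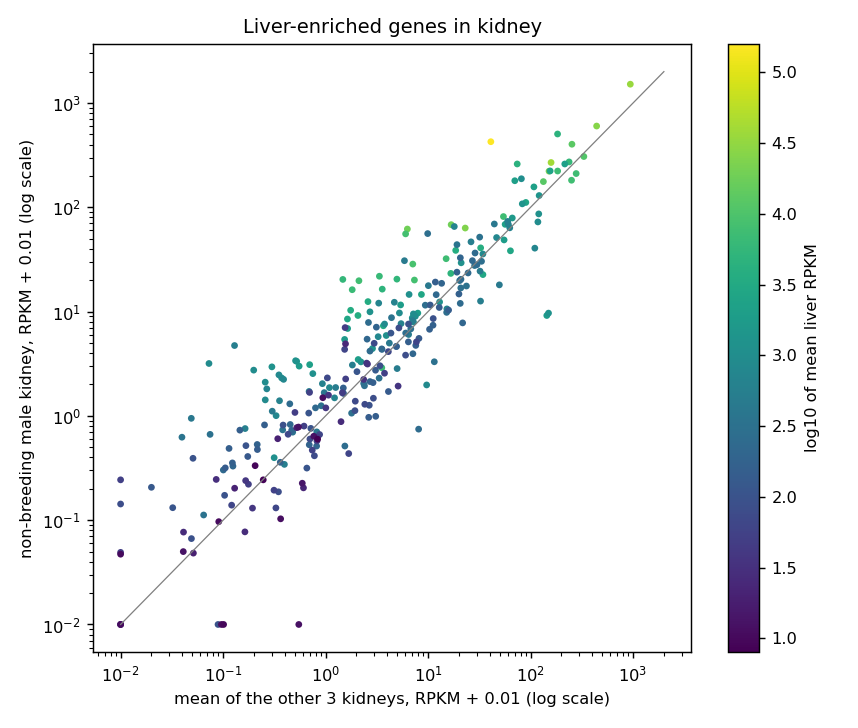
RPKM plus 0.01 of the 295 liver-enriched genes in the non-breeding male kidney (vertical log axis) against the mean of the other 3 kidneys (horizontal log axis), coloured by mean liver level, with the line of equality. Genes with high liver levels lie mostly above the line, DMR_10289 at 425.6 RPKM among them.

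DMR_10289 shows this in single values. It had 27.4 and 18.4 RPKM in the breeding male and female kidneys, against 425.6 and 77.1 RPKM in the non-breeding male and female kidneys. Breeders were below non-breeders in both sexes (log2 difference -2.96, SE 0.42, limma adjusted p = 0.231), the largest difference of a member toward non-breeding kidneys. DMR_09196 had the largest difference toward breeding kidneys, at 86.1 and 245.7 RPKM in the breeding male and female against 9.17 and 100.5 RPKM in the non-breeding male and female (log2 difference 2.19, SE 0.41, limma adjusted p = 0.293). Both breeding kidneys were above both non-breeding kidneys in 27 members (13.6%, background 20.8%) and below them in 34 (17.1%, background 13.5%), and 4 members were 2-fold or more higher in both pairs (background 0.543%) and 8 lower (background 0.235%). Without the non-breeding male kidney the difference of DMR_10289 was -1.73 (limma adjusted p = 0.355) and that of DMR_09196 was 0.53 (limma adjusted p = 0.9998).

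For status in kidney limma called 0 of 13618 genes (0% in either direction), with an unadjusted p under 0.05 in 14 members higher (background 5.29%) and 33 lower in breeders (background 3.68%). Voom called 2 members, both lower in breeders, DMR_10289 among them (Benjamini-Hochberg adjusted p = 0.00327, range over all alternatives 0.00327 to 0.9997). Without the non-breeding female kidney, 8 members among 15 genes were called, DMR_10289 and DMR_09196 being 2 of them (limma adjusted p = 0.00468 and 0.0187). That fit sets the breeders against the non-breeding male kidney alone, the highest kidney for DMR_10289 and the lowest for DMR_09196, with the spread taken from the 2 breeders and the prior, and gives no measure of the spread between non-breeders. Without the non-breeding male kidney, the non-breeding side is 1 library and sex leaves the model. Counts from that fit therefore do not isolate that kidney.

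In the ovaries, 150 of the 295 members reached 1 RPKM in either library, and could do so through the one where they are high. With 1 library a status there is no test. On RPKM + 1, 39 members (26.0%) were 2-fold or more higher in the breeding ovary, against a background of 6.35% of 14109 genes, and 6 (4.0%) were lower, against 1.91%. The rule removes a gene high in the breeding ovary only if it is also high in the breeding female liver. The median log2 ratio was 0.35 over the members and 0.02 over all genes tested. The 39 members had a median of 10 RPKM in the breeding ovary and 0.891 RPKM in the non-breeding ovary, and 32 of them had a mean of 1 RPKM or more in kidney, as had 127 of the 150. DMR_02680 had 64.2 RPKM (2604 reads) in the breeding ovary and 0.23 RPKM (7 reads) in the non-breeding ovary, a ratio of 53.2 on RPKM + 1. DMR_20157 had 27.4 RPKM (466 reads) in the breeding ovary and 0.15 RPKM (2 reads) in the non-breeding ovary. The lowest ratios belonged to DMR_17506, with 12.7 RPKM in the breeding ovary and 81.2 RPKM in the non-breeding ovary, and DMR_19969, with 5.30 and 25.8 RPKM.

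**Figure D5:**
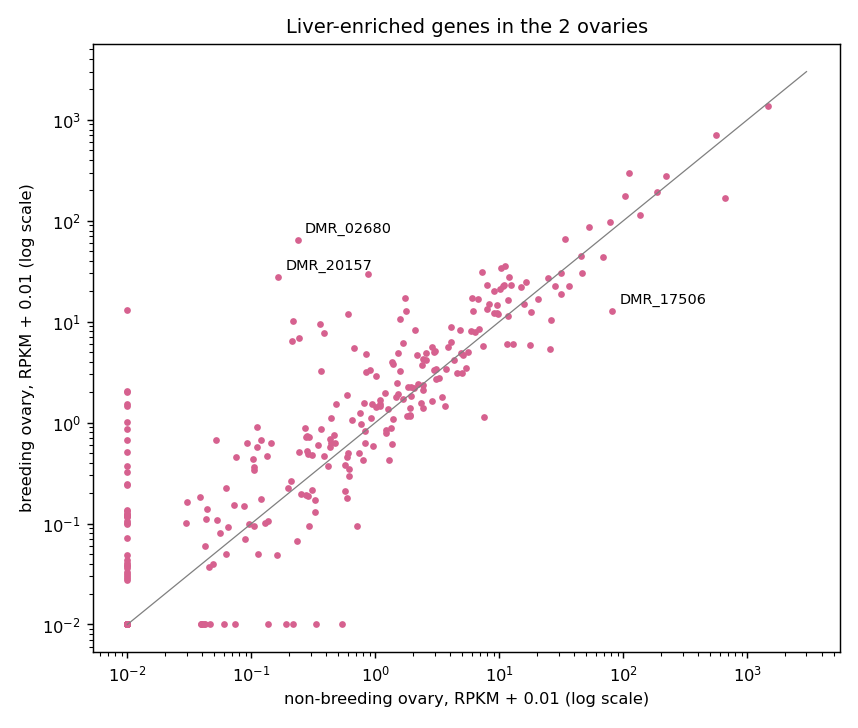
RPKM plus 0.01 of the 295 liver-enriched genes in the breeding ovary (vertical log axis) and the non-breeding ovary (horizontal log axis), with the line of equality. DMR_02680 lies at 64.2 RPKM in the breeding ovary and 0.23 RPKM in the non-breeding ovary, and DMR_17506 lies below the line.

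In the testes, 166 members reached 1 RPKM in either library, and fewer stood 2-fold apart. In the breeding testis 9 (5.42%) were 2-fold or more higher, against a background of 0.634% of 15452 genes, and 1 (0.602%) was lower, against 2.64%. The 9 were low, with a median of 3.72 RPKM in the breeding testis and 0.636 RPKM in the non-breeding testis, and 6 of them were among the 50 most abundant members in liver, as were 41 of the 166. DMR_09078 had 4.56 RPKM in the breeding testis and 0.83 RPKM in the non-breeding testis, and DMR_05574 had 6.65 and 1.53 RPKM. The 1 lower member, DMR_14967, had 0.87 RPKM in the breeding testis and 3.10 RPKM in the non-breeding testis. DMR_10131 followed with 4.38 and 9.13 RPKM.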

How the data were processed

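The authors deposited 1 table of RPKM values, 21082 genes by 16 libraries, all mapped by library title. Per the labels' protocols, poly(A) RNA was copied from random hexamers and read in pairs on an Illumina HiSeq instrument, with no marking of strand mentioned. The submitters' processing notes name TopHat 1.3.1. The sources used here do not give the counter, annotation or genome build, nor how reads of near-identical or overlapping genes were assigned. Whole reads were recovered as the smallest whole numbers in the ratios of a gene's values (100% of genes, tolerance 1e-06 reads). Coding lengths were assumed to be in units of 3 bases.

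Genes at 1 RPKM or more in at least 2 of the 4 libraries of a tissue were tested as log2(RPKM + 1), which understates changes of low genes, with limma 3.58.1 in R 4.3.3 (eBayes with trend, Benjamini-Hochberg adjustment over all genes tested, threshold 0.05), within liver and within kidney. Each such fit has 1 residual degree of freedom besides the prior from all genes. The recovery of reads and the liver fit for status were checked on simulated data. Libraries of other tissues stayed out, since members are far lower there than in liver, and a fit with them is given as an alternative. Named genes are the most abundant, those at the rule's edge, those highest in another tissue, and per comparison at most 2 a direction: members past the threshold by size, otherwise the largest difference with both pairs agreeing in sign. The members, the rule and the tests were chosen with earlier results of these data known. Lists of marker genes by symbol could not be used. Summaries of the members between statuses or sexes were not tested, since 2 libraries against 2 cannot go below an exact p of 0.333.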

Additional observations from a re-analysis of the deposited data

Results flagged for a closer look

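Of 69 sets of 4 libraries of a tissue, 13 held a value far from the other 3, by the gap to its neighbour over the whole range (Dixon's critical value 0.829). Chance flags about 1 in 20 only for independent normal values. These were raw RPKM from shared libraries, and the genes had been named for their size or differences. The number of flags can therefore not be set against 1 in 20. In liver these were DMR_19351 at 476 RPKM in the breeding female and DMR_09078 at 12981 RPKM in the non-breeding male. In kidney the non-breeding male stood apart for DMR_10289 (425.6 RPKM), DMR_09841 (61.9 RPKM), DMR_08805 (4.72 RPKM) and DMR_11225 (3.17 RPKM), and the breeding male for DMR_20157 (26.8 RPKM). In brain the breeding male stood apart for DMR_09841 (4080 RPKM), for the summed RPKM of the members (7787), which includes that gene, and for DMR_09196 (80.9 RPKM). The non-breeding male brain stood apart for DMR_08805 (0.996 RPKM, 15 reads) and DMR_19969 (2.93 RPKM), and the breeding female brain for DMR_09078 (8.03 RPKM).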

How the results depend on the processing

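The number of liver-enriched genes was 295, and 188 per read on genes, 493 with a 4-fold margin, 207 with 16-fold, 325 and 277 with a liver minimum of 1 and 10 RPKM, and 289 to 308 without 1 of the livers. Called members for sex in liver (0 as reported) were 4 in the 12-library fit and 0 to 14 without 1 liver. All genes called there were 34 in the 12-library fit, 3 without status in the model, 1 per read on genes, 2 with voom, 1 with a pseudocount of 5 and 0 to 323 without 1 liver. For status in liver, 2 genes were called in the 12-library fit, and without 1 liver 0 to 2 members and 0 to 47 genes. For status in kidney (0 as reported), voom called 2 members and 12 genes, scaling to reads on genes 3 genes, the stricter filter 1 gene, and fits without 1 kidney 0 to 8 members and 0 to 17 genes. For sex in kidney (1 member and 17 genes as reported), the members and genes called were 0 and 7 without status in the model, 11 and 84 per read on genes, 1 and 8 with quantile normalization, 11 and 109 with voom, 1 and 9 with a pseudocount of 0.1, 5 and 25 with a pseudocount of 5, 1 and 8 with no filter, 3 and 16 with 1 RPKM in every library, and 0 to 1 and 0 to 6 without 1 kidney. Without 1 library the other factor left the model too. In alternatives added after seeing the data, members without overlap lower in male livers were 53 in place of 34 per read on genes, and lower in breeding livers 50 (16.9%) in place of 32 with quantile normalization, where the background was 24.8% of the 8999 genes. The log2 difference of DMR_11225 between breeding and non-breeding livers ran from -5.54 to 0.96 without 1 liver. It was positive without the breeding female, where the breeding male was set against non-breeders of both sexes. With a pseudocount of 0.1, 10 members in place of 6 were lower in the breeding ovary (background 3.37%), and 18 in place of 9 were higher and 4 in place of 1 lower in the breeding testis (backgrounds 1.78% and 4.69%). At 5 RPKM or more in either testis, 3 of 61 were higher and 0 lower (backgrounds 0.487% and 2.9%). With the 10 most abundant members taken out of both the set and the total, the rest took 28.4% of the remaining summed RPKM in liver. All members took 47.6% of the full sum. The cause of these shifts was not tested, beyond the fewer samples or genes that an alternative holds by construction. No paired analysis was possible because each group holds 1 library and the labels give no replicate numbers.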

Other observations

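Members often carried neighbouring identifiers. Of the 295 members, 68 (23.1%) had another member at the next lower or next higher identifier number, against 2.39% of the other genes, in 25 runs of 2 consecutive numbers, 2 runs of 3 and 3 runs of 4. Members of 1 run differed widely in level. In the run that starts with DMR_11087, at a mean of 25936 RPKM in liver, the lowest of the 4 genes stood at 876.1 RPKM, and in the run that starts with DMR_13938, at 23954 RPKM, the lowest stood at 583.8 RPKM. The sources used here do not say what the numbering follows. Coding lengths of the members had a median of 1242 bases, against 1344 in the 8999 genes at 5 RPKM or more in each liver, and an upper quartile of 1677 bases against 2241.

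The 3 genes that the clause on the breeding female took out stood at 775.3, 49.9 and 49.1 RPKM in the breeding female liver. The gene with the highest of these values had 137.1, 195 and 29.9 RPKM in the breeding male, non-breeding male and non-breeding female livers, and its ovary values were 40.8 RPKM (breeding) and 0.813 RPKM (non-breeding).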
